A study of Mus musculus with 8 samples.

Results

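Transcripts of 36 genes for protein folding, secretion and stress in the endoplasmic reticulum (ER) were examined in RPE eyecups of Bbs8-/- and Bbs8+/+ mice. The 36 were listed by name for their function, with earlier results of these data known, and each was matched by symbol to 1 of the 31053 gene identifiers that were counted. A total of 35 passed the filter on low counts (at least 1 CPM in at least 4 libraries), and only Chac1 did not. The data came from 8 QuantSeq libraries, which read the 3′ end of polyadenylated RNA, with 4 libraries per genotype. All animals were at postnatal day 11, were labelled as strain C57/Bl6, had no treatment, and each counted as a separate biological replicate. The knockouts (labelled BBs8 knockout) lacked Bbs8 in the whole animal rather than in the RPE alone, and the wild-type animals (labelled Control) were their littermates. Eyecups were homogenized after removal of cornea, lens, retina and optic nerve, so the RNA came from the RPE together with the tissue that stays attached to it.

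The ER is where secreted and membrane proteins are threaded through the Sec61 channel, folded by chaperones of the Hsp70 and Hsp90 families, glycosylated, and given disulfide bonds by protein disulfide isomerases. Proteins that fail to fold are returned to the cytosol and degraded (ER-associated degradation). When unfolded protein accumulates, the membrane sensors IRE1, PERK and ATF6 (genes Ern1, Eif2ak3 and Atf6) start the unfolded protein response. IRE1 splices the mRNA of Xbp1, PERK raises translation of Atf4, and ATF6 is cut to release a transcription factor, and the 3 arms raise transcription of chaperone, degradation and amino acid genes. The RPE is a pigmented epithelium that secretes many proteins and makes large amounts of membrane protein, and matrix-producing cells such as fibroblasts fold and secrete collagen through the same machinery.

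Most of the 35 tested genes were at or slightly below their wild-type level in Bbs8-/- eyecups, and none was called higher. At a false discovery rate (FDR) of 0.05 with the quasi-likelihood test of edgeR, 1 gene was called lower (Calu, a calcium-binding protein) and 0 were called higher. Over all 13813 tested genes, 1.14% were called lower, 1.1% higher and 2.24% in either direction. The DESeq2 test called 2 members lower, Hspa5 and Hsp90b1, and 0 higher, where it called 0.946% of the 12474 genes with an adjusted p lower and 1.04% higher. At an unadjusted p under 0.05, 10 members were lower (28.6%) and 3 higher (8.57%), where 6.6% and 6.38% of all tested genes were. The levels of the 4 knockout libraries lay entirely below those of the 4 wild-type libraries for 7 members (20%) and entirely above for 1 (2.86%), where 3.76% and 3.62% of all tested genes did so. These 7 were Hspa5, Hsp90b1, Hyou1, Manf, Syvn1, Edem1 and Sec61b, and the gene above was Ssr1. The median log2 fold change of the members was -0.16, against -0.0041 for all tested genes, and 26 of 35 were negative, against 50.5% of all tested genes. In bulk tissue a lower level can come from fewer cells of a type or from less RNA per cell, and these cannot be told apart.

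Total gene counts ranged from 2159295 to 2884983 in Bbs8+/+ and from 1636725 to 2179761 in Bbs8-/- libraries (exact permutation test, two-sided, p = 0.0857, n = 4 each, where 0.0286 is the smallest p possible). Levels are CPM, a gene's counts scaled to the size of the library after TMM normalization, and 3 counts, the smallest level regarded as measurable, correspond to 1.04 to 1.83 CPM. That floor covers counting error only. Reads that fell in no gene took 42.1% to 43.4% of uniquely aligned reads in Bbs8+/+ and 44.1% to 44.4% in Bbs8-/-. The deleted gene itself, Ttc8 (ENSMUSG00000021013), was at 14.6, 19.7, 18.2 and 21.6 CPM in the Bbs8+/+ libraries 1 to 4 and at 9.70, 3.65, 2.29 and 4.20 CPM in the Bbs8-/- libraries 1 to 4 (log2 fold change -1.95, edgeR FDR 2.74e-06). The genotypes did not overlap, and knockout library 1 was the highest of its group. Which part of the gene is deleted is not given in the sources used here.

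The promoters of the members were searched for the elements through which ATF6, XBP1 and ATF4 are known to act. RefSeq promoters (GRCm38.p6, 250 bases before to 50 bases after the start) were found for 30 of the 36 genes, Ero1l under its newer symbol Ero1a. None was found for Hyou1, Manf, Atf6, Fkbp10, Sec61a1 and Ssr2, so these were not searched. The ER stress element (ERSE, CCAAT, then 9 bases of any kind, then CCACG, on either strand) was present in 8 of the 30 member promoters (26.7%) and in 39 of 32851 promoters of all genes (0.119%). The 8 were Hspa5, Hsp90b1, Dnajc3, Creld2, Calr, Canx, Pdia6 and Syvn1, and Hsp90b1 held it at 2 places. ERSE-II (ATTGG, then 1 base of any kind, then CCACG) was found in Herpud1 and Dnajb11, 6.67% of member promoters against 0.0365% of all. The core of the XBP1 element, TGACGTGG, was in 0 of the 30 and in 0.676% of all promoters. The C/EBP-ATF element, TGATGNAA (N, any base), was in Trib3, Asns, Chac1 and Herpud1, 13.3% against 3.97% of all. The letters of the 2 ERSE forms can overlap, but no member promoter held both. The members were listed by name for their function, so these shares describe the list and are not a result of these libraries. A match describes the letters only, and binding was not measured.

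The stretches around the ERSE are shown for the 3 ERSE genes whose knockout libraries all lay below the wild type (Hspa5, Hsp90b1 and Syvn1), for Pdia6, and for Calr and Canx, whose levels differed little. They are read 5′ to 3′ on the strand of the gene, and capitals mark the outer 5 bases on each side of the element. Where the element lies on the opposite strand it reads CGTGG at the left and ATTGG at the right.
Hspa5 (chr2:34772010-34772058, plus strand): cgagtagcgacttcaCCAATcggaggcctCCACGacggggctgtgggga
Hsp90b1 (chr10:86705518-86705671, minus strand): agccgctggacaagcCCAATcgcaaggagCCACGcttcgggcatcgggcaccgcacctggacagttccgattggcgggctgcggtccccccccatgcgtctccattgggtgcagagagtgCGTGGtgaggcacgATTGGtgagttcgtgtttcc
Syvn1 (chr19:6046517-6046565, plus strand): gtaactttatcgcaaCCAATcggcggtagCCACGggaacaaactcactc
Pdia6 (chr12:17266476-17266524, plus strand): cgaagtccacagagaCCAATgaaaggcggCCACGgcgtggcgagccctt
Calr (chr8:84847060-84847108, minus strand): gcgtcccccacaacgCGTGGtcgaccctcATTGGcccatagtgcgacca
Canx (chr11:50325785-50325833, minus strand): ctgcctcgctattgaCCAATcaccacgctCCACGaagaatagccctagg

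Members with and without the element had similar medians, but the shares of lower genes differed. The 8 genes with an ERSE had a median log2 fold change of -0.18, and all 8 were negative. Of these 8, 4 had an unadjusted p under 0.05 in the lower direction and 3 were lower without overlap. The 21 tested members with a promoter but without an ERSE had a median of -0.17, and 14 were negative. Of the 21, 4 had an unadjusted p under 0.05 in the lower direction and 2 in the higher. Without overlap, 2 of the 21 were lower and 1 higher. Over all tested genes, 6.6% were lower and 6.38% higher at that p, and 3.76% were lower and 3.62% higher without overlap. Among ERSE genes the range ran from -0.94 for Syvn1 to -0.02 for Calr. The plot of ERSE positions sets each element beside the change of its gene.

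**Figure D1:**
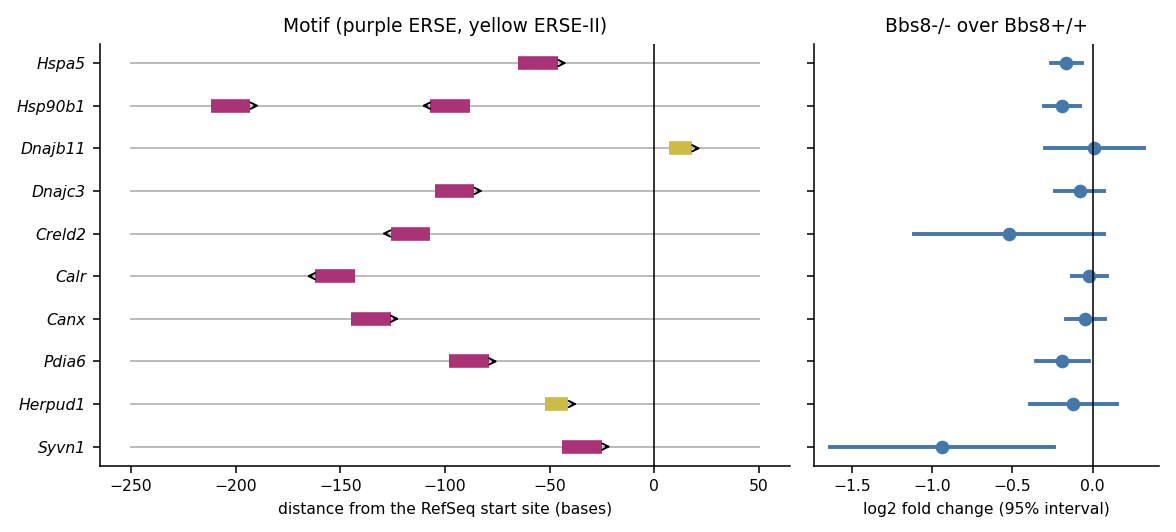
Left: position of ERSE (purple) and ERSE-II (yellow) matches in the promoters of 10 members, in bases from the RefSeq start site, with the arrow giving the strand of the match. Right: log2 fold change of the same gene in Bbs8-/- over Bbs8+/+ with its 95% interval, where 9 of the 10 points are below 0 and the intervals of Hspa5, Hsp90b1, Pdia6 and Syvn1 do not reach it.

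The chaperones and co-chaperones of the ER lumen held 4 of the 7 genes without overlap. Of 9 genes, 8 had a negative log2 fold change, 4 were lower at an unadjusted p under 0.05, and 0 passed FDR 0.05. Over all tested genes, 6.6% were lower at that p and 3.76% were lower without overlap. The median of the 9 was -0.30, and it was -0.18 without knockout library 2 and -0.19 without wild-type library 2. Hspa5 (ENSMUSG00000026864, GRCm38 chromosome 2 from 34771970 to 34777547) encodes BiP, the ER Hsp70 that also holds the stress sensors inactive, and at wild-type level it was the most abundant of the 36 transcripts. It was at 981, 966, 1009.6 and 1001 CPM in Bbs8+/+ and at 865, 899, 865 and 907 CPM in Bbs8-/-. All 4 knockout libraries were below all 4 wild-type libraries, with a gap wider than the spread inside either group (989 ± 19.8 against 884 ± 22.1 CPM, SD, n = 4 each). This was a log2 fold change of -0.16 (SE 0.0498), a level 10.6% lower, and the FDR of 0.0592 missed the threshold in edgeR. It was past it with library totals alone (FDR 0.0399) and in DESeq2 (FDR 0.0195), and in the other 14 of 16 alternatives the FDR ranged from 0.0516 to 0.205.

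Hsp90b1 encodes GRP94, the ER Hsp90, which folds integrins and Toll-like receptors. It was at 612, 613, 571 and 584 CPM in Bbs8+/+ and at 533, 491, 523 and 542 CPM in Bbs8-/-. The groups did not overlap, and knockout library 2 was the lowest. Its level was 12.2% lower (log2 fold change -0.19, SE 0.0571, edgeR FDR 0.0543), which missed the threshold. It passed in 3 of 16 alternatives, DESeq2 (FDR 0.0380), library totals alone (FDR 0.0391) and without wild-type library 3 (FDR 0.0368), and in the other 13 the FDR ranged from 0.0522 to 0.215, the highest without knockout library 2.

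Hyou1, an ER relative of Hsp70 that exchanges nucleotide on BiP, was far less abundant. It was at 19.8, 13.0, 18.7 and 18.1 CPM in Bbs8+/+ and at 7.88, 7.83, 11.5 and 12.6 CPM in Bbs8-/-. The lowest wild-type library, number 2, was just above the highest knockout library, number 4, and the other wild-type libraries stood well apart. From 13 to 52 counts per library, edgeR gave a log2 fold change of -0.78 (SE 0.267, FDR 0.113).

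Manf, a secreted ER protein that binds BiP and supports neurons, was at 45.7, 45.2, 44.4 and 59.3 CPM in Bbs8+/+ and at 34.6, 35.0, 38.5 and 36.9 CPM in Bbs8-/-. The knockout libraries were close together and all below the wild type, in which library 4 was high. With a log2 fold change of -0.43 (SE 0.154), the edgeR FDR was 0.148. The 3′ end of Manf lies inside the span of Dcaf1 on the opposite strand. Whether htseq-count used strand is not given in the sources used here. Overlap of their exons was not examined, so whether reads of this pair were mixed is not known.

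The other 5 chaperone genes overlapped between the genotypes. Creld2 and Sdf2l1, stress-induced ER proteins of which Sdf2l1 works with ER J proteins, had log2 fold changes of -0.52 and -0.50 at mean wild-type levels of 12.9 and 12.5 CPM (edgeR FDR 0.482 and 0.527). Creld2 was at -0.30 without wild-type library 2, and Sdf2l1 at -0.24 without knockout library 2. The J proteins, which pass unfolded clients to BiP, had log2 fold changes of -0.30 for Dnajb9, -0.08 for Dnajc3 and 0.01 for Dnajb11. For Dnajb11 the wild-type libraries were at 34.6 to 47.6 CPM and the knockout libraries at 34.6 to 47.0 CPM. The plot by library shows these groups for 12 members.

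**Figure D2:**
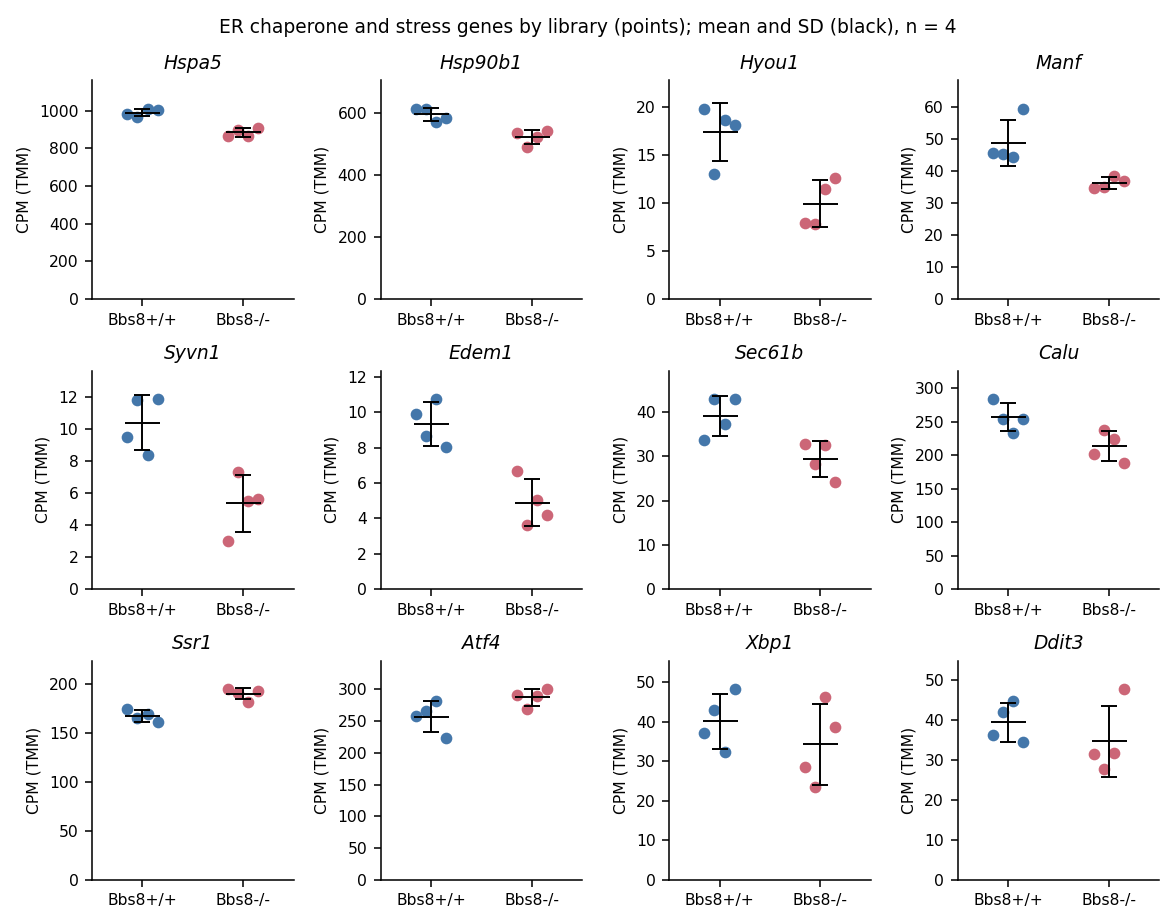
Level in CPM (TMM-scaled, axis from 0) of 12 members in each of the 4 Bbs8+/+ (blue) and 4 Bbs8-/- (red) libraries, with the mean and SD in black. Hspa5, Hsp90b1, Hyou1, Manf, Syvn1, Edem1 and Sec61b do not overlap and are lower in Bbs8-/-, Ssr1 does not overlap and is higher, and Calu, Atf4, Xbp1 and Ddit3 overlap.

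Calu (ENSMUSG00000029767, GRCm38 chromosome 6 from 29348069 to 29377110) was the only member to pass the test. It encodes calumenin, a calcium-binding protein with EF hands in the secretory pathway. Its level was 283, 254, 233 and 254 CPM in Bbs8+/+ and 202, 238, 225 and 188 CPM in Bbs8-/-. The groups overlapped, because knockout library 2 was above wild-type library 3. It fell by 16.9% (log2 fold change -0.27, SE 0.0759, edgeR FDR 0.0328). The call was lost in 5 of the 8 fits that left out a library: without wild-type library 1 (FDR 0.218), 2 (FDR 0.0835) or 4 (FDR 0.0603) and without knockout library 1 (FDR 0.156) or 4 (FDR 0.231), and it was also lost in DESeq2 (FDR 0.0872) and in the likelihood ratio test (FDR 0.0591). The 3′ end of Calu lies inside Opn1sw, the cone opsin gene on the opposite strand, which had 41 counts in all 8 libraries against 4213 for Calu.

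The lectin chaperones, which hold newly glycosylated proteins in the folding cycle, differed by less than the spread between libraries. Calr, calreticulin, was at 699, 699.9, 730.3 and 655 CPM in Bbs8+/+ and at 707, 675, 699 and 664 CPM in Bbs8-/-. Between genotypes the log2 fold change was -0.02 with a 95% interval from -0.13 to 0.09. Canx, its membrane-bound relative calnexin, had a log2 fold change of -0.04 with an interval from -0.16 to 0.08. The genotypes were intermixed for Calr. For Canx all 4 knockout libraries were below wild-type libraries 1 to 3 and above wild-type library 4, so without that library the groups did not overlap.

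Among the 7 isomerases and oxidases, which form and rearrange disulfide bonds or turn proline bonds, 0 passed FDR 0.05 in either direction and the median log2 fold change was -0.01. At an unadjusted p under 0.05, 2 were lower and 0 higher, where 6.6% and 6.38% of all tested genes were, and DESeq2 called 0. P4hb, protein disulfide isomerase and a subunit of the collagen prolyl hydroxylase, was at 197, 187, 165 and 169 CPM in Bbs8+/+ and at 187, 186, 178 and 150.3 CPM in Bbs8-/-. The wild-type and knockout libraries were intermixed. Pdia3, which works with the lectin chaperones, and Pdia4 were equally close, with log2 fold changes of 0.01 and -0.01. The genes below that p were Pdia6, a disulfide isomerase that also tempers IRE1 (log2 fold change -0.19, edgeR FDR 0.303), and Ppib.

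Ppib encodes cyclophilin B, a prolyl isomerase of the collagen-folding complex. It was at 124, 156, 138 and 142 CPM in Bbs8+/+ and at 112, 126, 122 and 129.8 CPM in Bbs8-/-. The groups overlapped through wild-type library 1, which lay below 2 knockout libraries, and the log2 fold change was -0.19 (edgeR FDR 0.356). Fkbp10, another prolyl isomerase that acts on collagen, was at 59.5, 55.8, 70.5 and 42.2 CPM in Bbs8+/+ and at 74.6, 55.9, 69.2 and 67.7 CPM in Bbs8-/-. Its value pointed the other way (log2 fold change 0.24, edgeR FDR 0.458) and the groups overlapped. With 1 library left out, Fkbp10 ranged from 0.11 (without wild-type library 4) to 0.35 (without wild-type library 3). The 3′ ends of Pdia6, Ppib and Fkbp10 are covered by a gene on the opposite strand, with 8, 8 and 297 counts in the 8 libraries for Atp6v1c2, Snx22 and Nt5c3b. Ero1l, the oxidase that recharges disulfide isomerases, had a log2 fold change of 0.16 with a wide interval from -0.39 to 0.71.

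The sensors and transcription factors of the response were not called in either direction by edgeR or DESeq2. Of 6 genes, 1 was higher and 0 lower at an unadjusted p under 0.05, where 6.38% and 6.6% of all tested genes were. Xbp1 was at 37.1, 42.9, 32.2 and 48.2 CPM in Bbs8+/+ and at 28.5, 23.5, 46.3 and 38.8 CPM in Bbs8-/-. The groups overlapped widely, since knockout library 3 was near the top of the wild-type range and knockout library 2 was the lowest of all 8. Its log2 fold change was -0.22 with an interval from -0.55 to 0.11. With 1 library left out, Xbp1 ranged from -0.40 (without knockout library 3) to -0.07 (without knockout library 2). Counts at the 3′ end do not distinguish spliced from unspliced Xbp1. For the sensors the log2 fold change was -0.49 for Ern1 (95% interval -1.09 to 0.12), -0.14 for Atf6 (-0.47 to 0.19) and 0.15 for Eif2ak3 (-0.25 to 0.56). With 1 library left out, Atf6 ranged from -0.23 to -0.06 and Eif2ak3 from 0.05 to 0.24, the smallest sizes without wild-type library 3 and knockout library 3, respectively.

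Atf4, the transcription factor of the PERK arm, was at 258, 266, 282 and 223 CPM in Bbs8+/+ and at 292, 269, 289 and 300.2 CPM in Bbs8-/-. Of the knockout libraries, 3 were above every wild-type library and library 2 was below wild-type library 3. The difference had an unadjusted p under 0.05 but missed the threshold (log2 fold change 0.16, SE 0.0717, edgeR FDR 0.283). Because Atf4 is regulated mainly through its translation, its mRNA is an incomplete measure of that arm.

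Ddit3 encodes CHOP, the factor of the late, cell-death phase of ER stress. It was at 36.2, 42.1, 44.8 and 34.6 CPM in Bbs8+/+ and at 31.5, 27.7, 31.6 and 47.6 CPM in Bbs8-/-. Of the knockout libraries, 3 were below the wild-type range and library 4 was above it, and the log2 fold change was -0.17 (edgeR FDR 0.74). With 1 library left out, Ddit3 ranged from -0.37 (without knockout library 4) to -0.08 (without knockout library 2). Its 3′ end lies inside Mars on the opposite strand, so the assignment of reads carries the same uncertainty as for Manf.

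The late targets of ATF4 and CHOP were at the edge of what this depth can show. Chac1, which breaks down glutathione, had 0, 1, 0 and 1 counts in Bbs8+/+ and 0, 0, 4 and 1 counts in Bbs8-/- and was not tested. Trib3, a pseudokinase that restrains ATF4, had 1 to 10 counts per library. Asns, asparagine synthetase, was at 8.19, 1.18, 1.40 and 4.19 CPM in Bbs8+/+ and at 3.64, 0, 2.75 and 3.27 CPM in Bbs8-/-. Wild-type library 1 alone held the highest level, and without it the log2 fold change turned from -0.62 to 0.05. The 95% intervals ran from -2.69 to 0.49 for Trib3 and from -1.84 to 0.59 for Asns, so the data bounded an increase more closely than a decrease.

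The genes of ER-associated degradation divided by abundance. Syvn1, the ubiquitin ligase HRD1 at the centre of the pathway, was at 9.48, 11.8, 8.41 and 11.9 CPM in Bbs8+/+ and at 3.03, 7.31, 5.50 and 5.60 CPM in Bbs8-/-. The groups did not overlap, and knockout library 1 was the lowest. With 5 to 34 counts per library, the log2 fold change of -0.94 (SE 0.353) had an edgeR FDR of 0.177. The gene Mrpl49 on the opposite strand covers its 3′ end and had 477 counts in the 8 libraries against 147 for Syvn1.

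Edem1, a mannosidase-like lectin that picks glycoproteins for degradation, was at 9.91, 8.65, 10.7 and 8.03 CPM in Bbs8+/+ and at 6.67, 3.65, 5.04 and 4.20 CPM in Bbs8-/-. Here too all knockout libraries were below all wild-type libraries, from 7 to 23 counts (log2 fold change -0.93, edgeR FDR 0.223). The more abundant partners overlapped between the genotypes. Sel1l, the adaptor of HRD1, had a log2 fold change of 0.09 with an interval from -0.09 to 0.28.

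Herpud1, a stress-induced membrane protein of the same complex, was at 68.9, 55.8, 55.1 and 47.5 CPM in Bbs8+/+ and at 50.9, 57.4, 50.9 and 49.5 CPM in Bbs8-/-. Wild-type library 1 was the highest and the rest of the libraries were intermixed. The log2 fold change was -0.12, the interval ran from -0.39 to 0.15, and without wild-type library 1 the value was -0.01.

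In the translocation machinery, 2 of the 4 genes had positive and 2 negative values. At an unadjusted p under 0.05, 2 were higher (Ssr1 and Sec61a1) and 1 lower (Sec61b), where 6.38% and 6.6% of all tested genes were. Sec61b, the beta subunit of the protein channel, was at 33.6, 42.9, 37.4 and 42.9 CPM in Bbs8+/+ and at 32.7, 28.2, 32.6 and 24.3 CPM in Bbs8-/-. The groups were separated narrowly, between wild-type library 1 and knockout library 1, with a log2 fold change of -0.42 (SE 0.170, edgeR FDR 0.225). Ssr1, the alpha subunit of the signal sequence receptor that stands beside the channel, was at 174, 164, 169 and 161 CPM in Bbs8+/+ and at 194, 191, 182 and 192 CPM in Bbs8-/-. It was the 1 member whose knockout libraries were all above the wild type, with a log2 fold change of 0.18 (SE 0.0814, edgeR FDR 0.299). The channel subunit Sec61a1 had a log2 fold change of 0.14 (edgeR FDR 0.374) and Ssr2 of -0.06.

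**Figure D3:**
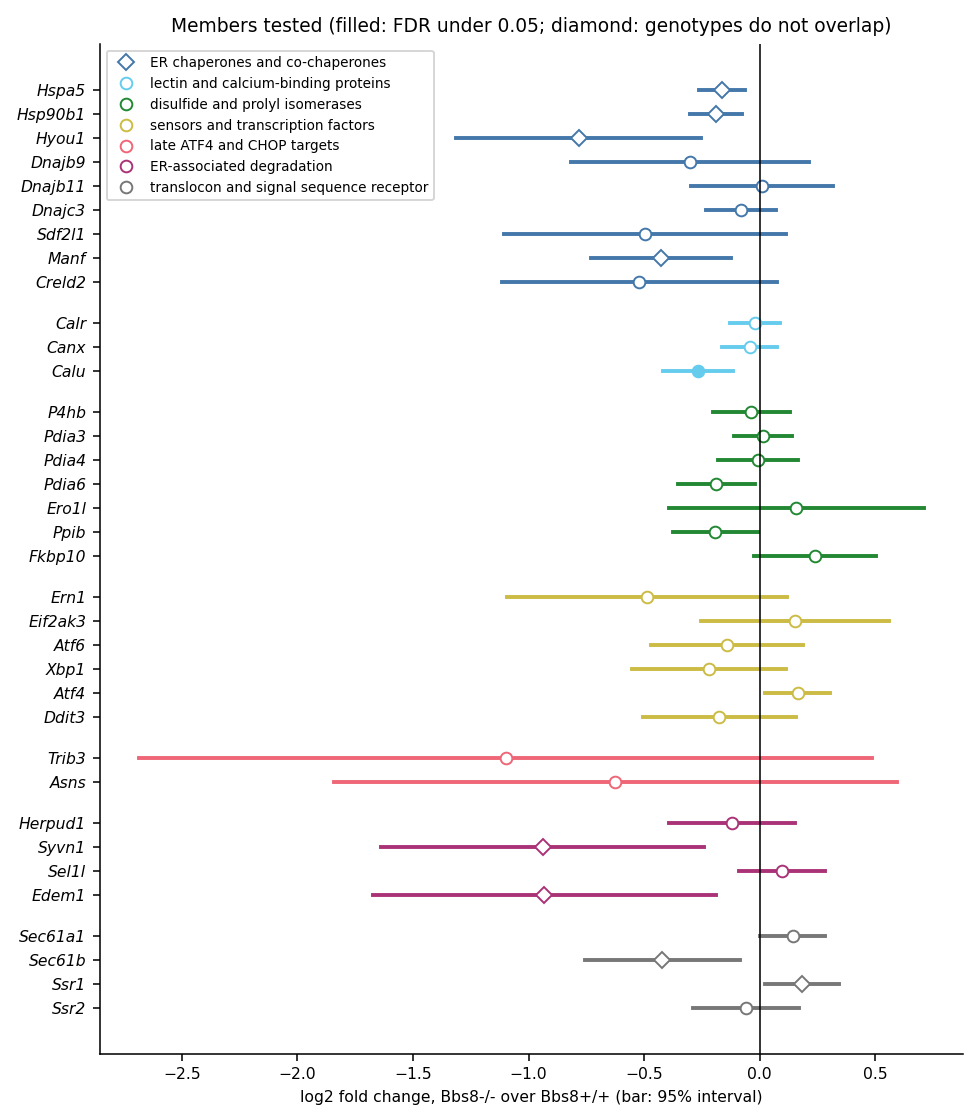
Log2 fold change in Bbs8-/- over Bbs8+/+ for the 35 tested members, grouped by role, with 95% intervals from the edgeR fit. Only Calu passes FDR 0.05 (filled), 8 genes do not overlap between genotypes (diamonds, 7 negative and Ssr1 positive), and the intervals of Trib3 and Asns are the widest.

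The intervals give the range of change for each member. The upper end of the 95% interval was below a log2 fold change of 0.5 for 31 of the 35 members and below 1 for all 35. The 4 exceptions at 0.5 were Ero1l, Fkbp10, Eif2ak3 and Asns. The whole interval lay within 0.5 in both directions for 19 members. The lower end reached -1 or beyond for 8, namely Hyou1, Sdf2l1, Creld2, Ern1, Trib3, Asns, Syvn1 and Edem1, all with a mean below 30 CPM.

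In the wild type the members spanned a wide range of levels, in CPM of 3′ ends, which are not divided by transcript length because this method reads about 1 position per transcript. Hspa5 at 989 ± 19.8 CPM was above Calr at 696 ± 31.1, which was above Hsp90b1 at 595 ± 20.9 and Canx at 455 ± 25.4 CPM, and no 2 neighbours among these 4 overlapped over the 4 libraries. Canx and Pdia3 overlapped, and so did Sec61a1, Atf4 and Calu among themselves. The lowest of the 35 tested were Edem1 at 9.33 ± 1.22, Asns at 3.74 ± 3.27 and Trib3 at 2.30 ± 1.55 CPM, which overlapped with their neighbours. The order of the first 4 was the same in Bbs8-/-.

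Members at different levels were set beside all genes at the same levels. The 11 members with a mean below 30 CPM had a median log2 fold change of -0.52, with 3 lower without overlap, where the 8701 tested genes of that range had a median of -0.02 and 2.72% were lower without overlap. The 9 members from 30 to 100 CPM had a median of -0.14, with 2 lower without overlap, against 4.51% of 3507 genes. The 15 members at 100 CPM or more had a median of -0.04, with 2 lower without overlap (against 7.73% of 1605 genes) and 1 higher (against 10.3%).

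A wider list of 118 ER, secretory and stress genes was near the background of all genes. Of 113 that could be tested, 1 was called higher and 1 lower by edgeR, the median log2 fold change was 0.00, and 57 were positive and 56 negative. The share lower without overlap was 2.65% and higher 3.54%, close to the 3.76% and 3.62% of all genes. By group the median was -0.03 for 21 genes of translocation, signal peptidase and N-glycosylation, 0.01 for 25 further folding genes, and -0.01 for 15 further degradation genes. It was -0.03 for 14 genes of ER export and retrieval, -0.08 for 16 further stress regulators and 0.05 for 22 further ATF4 targets, of which 0 were called by edgeR and 0 had an unadjusted p under 0.05.

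Creb3l1 was the gene called lower. It encodes OASIS, a membrane-bound ER transcription factor cut in the manner of ATF6, which is known for driving collagen genes in bone. It was at 106, 87.7, 118 and 112 CPM in Bbs8+/+ and at 70.3, 78.3, 66 and 76.1 CPM in Bbs8-/-. The groups did not overlap, and the call (log2 fold change -0.54, SE 0.111, edgeR FDR 0.000456) was kept in all 16 alternative fits.

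Rcn3, reticulocalbin 3, a relative of calumenin in the ER lumen, was the gene called higher. It was at 249.9, 240.2, 261 and 217 CPM in Bbs8+/+ and at 279.6, 269, 313 and 308 CPM in Bbs8-/-. The knockout libraries were all above the wild type, with a log2 fold change of 0.28 (SE 0.0720, edgeR FDR 0.012). The call was lost without wild-type library 4 (FDR 0.1), knockout library 3 (FDR 0.0976) or knockout library 4 (FDR 0.0664). Calu and Rcn3, both EF-hand proteins of 1 family, had values of opposite sign in the same libraries.

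**Figure D4:**
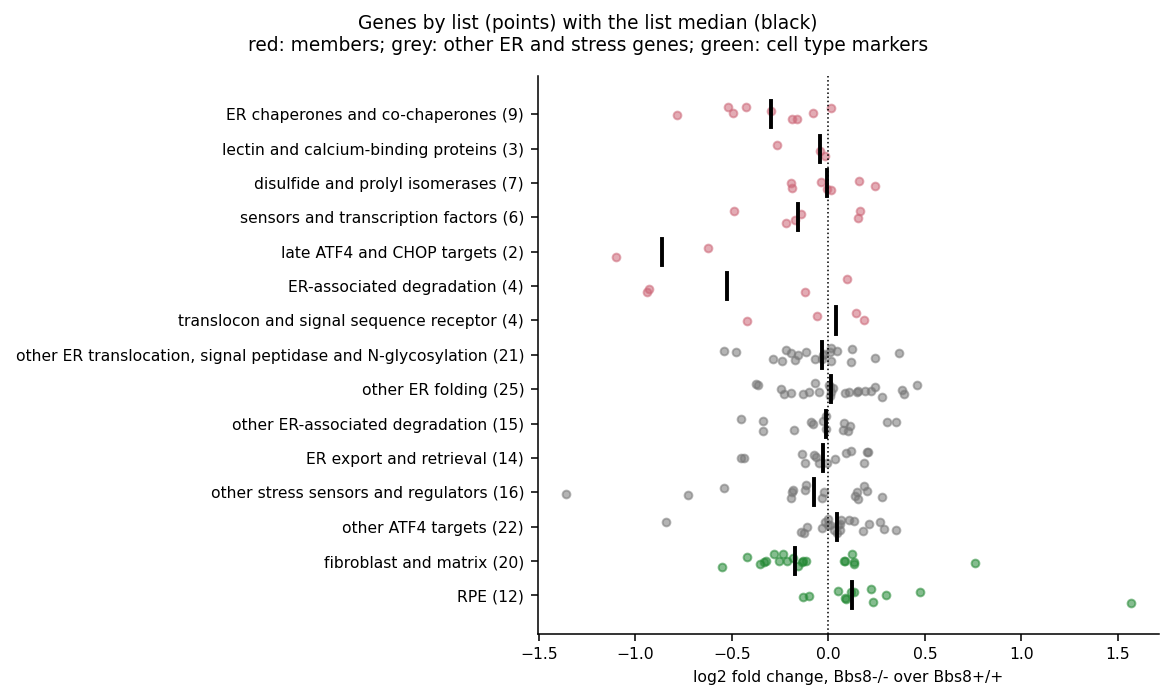
Log2 fold change of each tested gene (points) by list, with the list median as a black bar, for the members by role (red), the wider ER and stress lists (grey) and markers of fibroblasts with matrix and of RPE (green). The medians of the grey lists lie between -0.08 and 0.05, and those of the chaperone and degradation members at -0.30 (-0.18 without knockout library 2) and -0.52. The 4 degradation genes are at -0.94, -0.93, -0.12 and 0.09, so none lies near their median. The medians of the lectin, isomerase and translocation members are -0.04, -0.01 and 0.04. Those of the sensors with transcription factors and of the 2 late targets are -0.16 and -0.86.

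Markers of the cells in the eyecup moved with genotype in the same libraries. The 12 RPE markers, of which Best1 was near the floor (mean 0.740 CPM in Bbs8+/+ and 2.18 CPM in Bbs8-/-), had a summed level of 18492 to 19608 CPM in Bbs8+/+ and 20174 to 20538 CPM in Bbs8-/-, and 3 of them were called higher and 0 lower. Of the 12, 10 had a positive log2 fold change and 6 were higher without overlap. Rpe65, the isomerase of the visual cycle, ran against its list with the lowest value (1998 ± 98.4 and 1824 ± 81.5 CPM, SD, n = 4 each, log2 fold change -0.13, edgeR FDR 0.0843). The 20 genes of fibroblasts and matrix summed to 48245 to 49362 CPM in Bbs8+/+ and to 40929 to 43048 CPM in Bbs8-/-, and 7 were called lower and 2 higher. Among these, Col1a1 fell from 11698 ± 133 to 8737 ± 326 CPM and Col1a2 from 15096 ± 683 to 10294 ± 269 CPM (log2 fold changes -0.42 and -0.55, edgeR FDR 1.96e-25 and 1.55e-36), and Col3a1 fell by 0.21 on the log2 scale. The genes called higher, named after their values were seen, were Sparc (log2 fold change 0.13, edgeR FDR 0.00147) and Thy1 (log2 fold change 0.76, edgeR FDR 0.0455). Without Col1a1 and Col1a2 the other 18 genes summed to 21850 to 22084 CPM in Bbs8+/+ and to 22125 to 23197 CPM in Bbs8-/-, so the lower sum rested on Col1a1 and Col1a2. Over the whole list 14 of 20 genes were negative, 11 had an unadjusted p under 0.05 in the lower direction and 7 were lower without overlap, with a median log2 fold change of -0.17. Collagen is a major client of the ER chaperones and isomerases. The part of fibroblasts and their matrix genes in the lower values of Hspa5, Hsp90b1, Hyou1, Manf, Syvn1, Edem1 and Calu was not tested.

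Lens had been removed before homogenization, yet 13 of 19 tested lens markers were called higher, with a median log2 fold change of 2.75, the largest of the marker lists, and a summed level of 225 to 264 CPM in Bbs8+/+ and 646 to 692 CPM in Bbs8-/-. Its part in the members' values was not tested. Also called higher were 2 of 15 for skeletal muscle, 2 of 12 for macrophages, 2 of 7 for erythroid cells and 1 of 12 for endothelium. Called lower were 7 of 11 pigment cell markers and 2 of 12 photoreceptor markers. The pigment cell markers summed to 14387.1 to 15064.6 CPM in Bbs8+/+ and to 11940.5 to 12493.6 CPM in Bbs8-/-. Of these 11, 10 were negative and 1 positive, with a median log2 fold change of -0.25. Without overlap 8 of the 11 were lower (72.7%, against 3.76% of all tested genes) and 0 higher. The part of pigment cells in the members' values was not tested. Markers of plasma cells, which are rich in ER, summed to 18.2 to 31.9 CPM in Bbs8+/+ and to 22.5 to 36.5 CPM in Bbs8-/-, and edgeR called 0 of 3 tested, with 0 at an unadjusted p under 0.05.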

How the data were processed

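RNA of RPE eyecups from 4 Bbs8+/+ and 4 Bbs8-/- mice was measured by QuantSeq 3′ sequencing. The authors trimmed the reads with BBDuk, aligned them with STAR to mm10 with an Ensembl gene model, and counted them with htseq-count. Each deposited file held whole-number counts per gene for 1 library, from reads with a unique alignment. Lines that name no gene were left out, of which reads in no gene took 42.1% to 44.4% of uniquely aligned reads. The strand setting is not given in the sources used here. No molecular identifiers were named.

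Symbols were matched for 31011 of 31053 identifiers through a list of gene names, and through GENCODE M21 where that list gave none. Where a listed symbol had more than 1 identifier, the one with the most counts was kept. A second Ddit3 identifier had 0 counts. A gene needed 1 CPM or more in 4 or more libraries, and the test was the quasi-likelihood test of edgeR 4.0.16 (R 4.3.3) with TMM scaling, genotype as the only factor, and Benjamini-Hochberg adjustment over all 13813 tested genes. The study's filter on multi-mapped reads was not applied. The standard error (SE) was the log2 fold change divided by the square root of F, and 95% intervals used the t distribution. Alternatives were RLE factors, library totals only, filterByExpr, no filter, a likelihood ratio test, DESeq2 1.42.0, the replicate number as a block, FDR 0.01, leaving out Gm42418 and mitochondrial genes (for the medians also fibroblast genes) and leaving out each library. Counts without overlap and counts at an unadjusted p under 0.05 were repeated under alternatives chosen after seeing the data.

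The members, role groups and lists were chosen with earlier results of these data known. Values in every library were given for Ttc8, for members past FDR 0.05 or without overlap, and for 13 fixed members (Hspa5, Hsp90b1, Calr, Calu, P4hb, Xbp1, Atf4, Ddit3, Herpud1, Sec61b, Asns, Ppib and Fkbp10), and genes of the wider list were named when past FDR 0.05. Replicates were separate libraries, with mean chi-square values per gene from 1.87 to 3.08 between libraries of a genotype, where 1 is sampling noise. Protein retrieval signals were not analysed here. The fits were tested on simulated counts.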

Additional observations from a re-analysis of the deposited data

Results flagged for a closer look

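In 4 of 78 groups of 4 libraries (members, Ttc8 and the genes called in the wider list, by genotype), the gap between 1 library and the nearest of the other 3 took more of the group's range than Dixon's critical value allows, where chance gives about 3.9. All 4 were in Bbs8+/+. Manf was at 59.3 CPM in wild-type library 4, against 44.4 to 45.7 CPM in the others. Canx was at 417 CPM in wild-type library 4, against 465 to 471 CPM. Pdia6 was at 169 CPM in wild-type library 3, against 183 to 185 CPM. Sel1l was at 148 CPM in wild-type library 1, against 118 to 119 CPM.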

How the results depend on the processing

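The number of members called lower, 1 in the reported fit, was 3 with library totals only, 2 with DESeq2, 0 with a replicate block (Calu FDR 0.0599), 0 under the likelihood ratio test and 0 at FDR 0.01, and 0 to 2 with 1 library left out. Members called higher were 0 in every alternative. At an unadjusted p under 0.05 the members lower numbered 8 to 11 over all alternatives, and those higher 1 to 4 with 1 library left out. The 7 members lower without overlap were 7 under each of 3 other scalings and 7 to 9 with 1 library left out, where the share of all tested genes was 5.28% to 5.89% in place of 3.76%, and the 1 higher was 1 to 2. In the wider list the 1 gene called higher was 0 at FDR 0.01 and 0 to 2 with 1 library left out. The median over members was -0.14 with filterByExpr, which leaves out the genes of lowest counts, and -0.17 to -0.13 with 1 library left out. The chaperone median was -0.39 to -0.18 and the isomerase median -0.049 to 0.026 with 1 library left out. Of 38 named genes, 31 kept their direction in all alternatives that gave a value. The other 7 turned only when 1 library was left out, with ranges of -0.065 to 0.089 for Dnajb11, -0.046 to 0.0046 for Calr, -0.071 to 0.034 for P4hb, -0.019 to 0.055 for Pdia3, -0.049 to 0.066 for Pdia4, -0.92 to 0.054 for Asns and -0.13 to 0.012 for Ssr2. The cause was not tested. The replicate numbers did not pair the libraries, since deviations of same-numbered libraries correlated from -0.056 to 0.020 over 6626 genes. For the late ATF4 targets filterByExpr left no gene and gave no value. At this depth the members below 30 CPM are the least certain.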
